A study of Mus musculus with 31 samples.

Results

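The 44 genes described here encode the core DNA replication machinery of the mouse: origin licensing factors, the replicative helicase, polymerases, the sliding clamp and its loader, single-strand binding protein, flap and ligation enzymes and the enzymes of nucleotide supply. They were taken by symbol from the probe annotation of the array, and all 44 were found among the 19938 genes with a named probe. Their levels were compared across 9 blood-forming populations sorted from the bone marrow of wild-type C57BL/6 mice, on 31 gene arrays. No genotype, drug or other treatment was compared, and age and sex are not given in the sources used here.

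The populations follow the path from stem cells to granulocytes and were defined by surface markers. Long-term haematopoietic stem cells (LT-HSC, 4 arrays), short-term stem cells (ST-HSC, 3 arrays) and the multipotent progenitors MPP2 (3 arrays), MPP3 (3 arrays) and MPP4 (5 arrays) were all lineage-negative cells with cKit and Sca1. Among these, LT-HSC were CD150+ and CD48-, ST-HSC lacked both markers, MPP2 carried both, and MPP3 were CD48+ and CD150-, all of them Flk2-, whereas MPP4 were sorted as Flk2+. Common myeloid progenitors (CMP, 3 arrays) and granulocyte-macrophage progenitors (GMP, 4 arrays) were lineage-negative cKit+ CD34+ cells that lacked or carried the Fcγ receptor. Pre-granulocytes (PreGr, 3 arrays) and granulocytes (Gr, 3 arrays) were Mac1+ cells with intermediate or high Gr1. Each array received RNA of 20000 cells sorted in 2 rounds and amplified. The replicates are called biological by the submitters, but animals and pools are not named, so the p-values below measure the spread between arrays. HSC and GMP arrays were shared with another study of the same group, as its controls.

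Replication begins with licensing: the origin recognition complex (Orc1 to Orc6) marks origins and, with Cdc6 and Cdt1, loads the ring of Mcm2 to Mcm7 onto DNA before S phase. Cdc45 and the GINS proteins then join the ring to form the active helicase, with Mcm10 needed for its activation, and polymerase alpha with primase lays down primers that polymerases epsilon and delta extend. PCNA, loaded by replication factor C, tethers the polymerases, RPA coats single strands, Fen1 and Lig1 join the lagging strand, and ribonucleotide reductase, Tyms and Tk1 supply nucleotides. Most long-term stem cells of adult marrow are quiescent, progenitors divide often, and granulocytes leave the cell cycle as they mature.

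Levels are log2 values on a scale made common to all arrays, and a log2 difference of 1.00 is a 2.00-fold difference. The arrays fell into 5 sets with their own general brightness before scaling, found from values that arrays shared and not named in the labels. A gene was called higher or lower where limma gave a Benjamini-Hochberg adjusted p under 0.05 over all 19938 genes both with the array set in the model and without it, in the same direction. Changes with their standard errors (SE) and adjusted p-values are those with the set in the model. ST-HSC shared a set with MPP2 and with MPP3 arrays 1 and 2, CMP with MPP4 arrays 1 to 3, and PreGr and Gr with GMP arrays 1 to 3. The comparisons with LT-HSC, and that of GMP with CMP, had to cross sets through a few arrays. Arrays of the same population correlated at 0.961 to 0.995 over genes. Between LT-HSC and ST-HSC, Slamf1 (CD150) followed the labels, at 8.71 ± 0.61 (SD, n = 4) and 5.05 ± 0.34 (SD, n = 3). In MPP2, also sorted as CD150+, Slamf1 read 6.83 ± 0.41, against 5.6 ± 0.22 in MPP3 and 7.25 ± 0.32 in CMP (SD, n = 3 each). Cd48 was as labelled at 6.85 ± 0.73 in ST-HSC and 10.44 ± 0.14 in MPP3 (SD, n = 3). Flt3, which encodes Flk2, read 9.96 ± 0.09 in ST-HSC and 9.72 ± 0.13 in MPP3, although both were sorted as Flk2-. In the other Flk2- populations Flt3 read 8.21 ± 0.25 (LT-HSC) and 8.18 ± 0.48 (MPP2), against 11.27 ± 0.54 in MPP4 (SD, n = 5).

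Promoters are shown first, as a description of the genes. Whether they bear on the changes between populations was not tested. RefSeq windows of GRCm38.p6, from 250 bases before to 50 bases after a gene's start, were listed for 37 of the 44 genes, and not for Mcm4, Gins1, Gins2, Gins4, Prim2, Pole and Rfc2. They were searched on both strands for 4 kinds of motif. The first was the 8-base word of the kind bound by E2F, the factor family that governs entry into S phase, written as TTTGGCGC, TTTGCCGC, TTTCGCGC or TTTCCCGC. It was present in 15 of 37 replication promoters (40.5%) and in 2.60% of the 27025 genes with a window, which were not matched for base content. These 15 were Orc1, Orc3, Cdc6, Cdt1, Mcm3, Mcm5, Mcm6, Mcm7, Gins3, Pola1, Pold1, Pold3, Pole2, Rfc3 and Lig1. The 6 stretches of 80 bases printed here, from licensing, helicase and polymerase genes that changed in the comparisons below, show the word in capitals, on either strand. In Mcm5 and Mcm6 the capitals join 2 overlapping words, 1 on each strand.
Orc1, chr4:108579374-108579453, plus strand, bases 80 to 1 before the start: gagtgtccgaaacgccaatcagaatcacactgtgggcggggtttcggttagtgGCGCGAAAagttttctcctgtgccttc
Cdc6, chr11:98908008-98908087, plus strand, bases 143 to 64 before the start: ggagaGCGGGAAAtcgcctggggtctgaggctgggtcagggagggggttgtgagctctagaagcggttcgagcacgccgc
Mcm5, chr8:75109351-75109430, plus strand, bases 158 to 79 before the start: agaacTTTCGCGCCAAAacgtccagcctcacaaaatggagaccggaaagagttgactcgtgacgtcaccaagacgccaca
Mcm6, chr1:128359741-128359820, minus strand, bases 115 to 36 before the start: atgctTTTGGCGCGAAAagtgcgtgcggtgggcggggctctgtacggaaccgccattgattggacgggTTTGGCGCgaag
Mcm7, chr5:138171974-138172053, minus strand, bases 170 to 91 before the start: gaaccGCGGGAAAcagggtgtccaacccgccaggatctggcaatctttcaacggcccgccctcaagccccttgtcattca
Pola1, chrX:93632219-93632298, minus strand, bases 143 to 64 before the start: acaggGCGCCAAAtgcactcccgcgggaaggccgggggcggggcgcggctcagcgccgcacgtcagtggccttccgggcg

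The other motifs were more common among all genes. The CCAAT box was present in 23 of 37 replication promoters (62.2%) and in 41.1% of genes, and the GC box GGGCGG in 28 (75.7%) and in 38.2%. The cell cycle element written as TTTGAA or TTCGAA, best known from mitotic genes, was present in 7 (18.9%) and in 21.7%. A match is a run of letters in this window and does not show binding. Of the 15 genes with the E2F-type word 9 rose in MPP2 over ST-HSC, and of the 22 without it 12 did. From PreGr to Gr, 13 of the 15 and 19 of the 22 fell. Rrm2, Tyms, Rrm1 and Mcm10, with large changes below, had no E2F-type word in the window.

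Across the 9 populations most of the genes had their lowest level in the same place. Granulocytes had the lowest mean level for 34 of the 44 genes, ST-HSC for 7, LT-HSC for 2 and PreGr for 1. The highest mean was in CMP for 15 genes, in GMP for 12 and in MPP2 for 10, with the other 7 spread over the remaining populations. The matching shares of all genes were not counted. These means were not adjusted for the array set, and ST-HSC, MPP2, CMP, PreGr and Gr each lay in a single set. Population and set cannot be told apart in such a ranking across sets. Averaged over the 44 genes, arrays read 8.65 to 8.78 in ST-HSC, 8.98 to 9.21 in LT-HSC, 9.20 to 9.4 in MPP4, 9.27 to 9.33 in MPP3, 9.36 to 9.52 in MPP2, 9.56 to 9.60 in CMP and 9.56 to 9.67 in GMP. PreGr fell between these at 9.08 to 9.37, and the Gr arrays read 8.51, 8.17 and 7.74. In bulk RNA, fewer cycling cells in a population and less RNA of these genes per cell cannot be told apart.

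**Figure D1:**
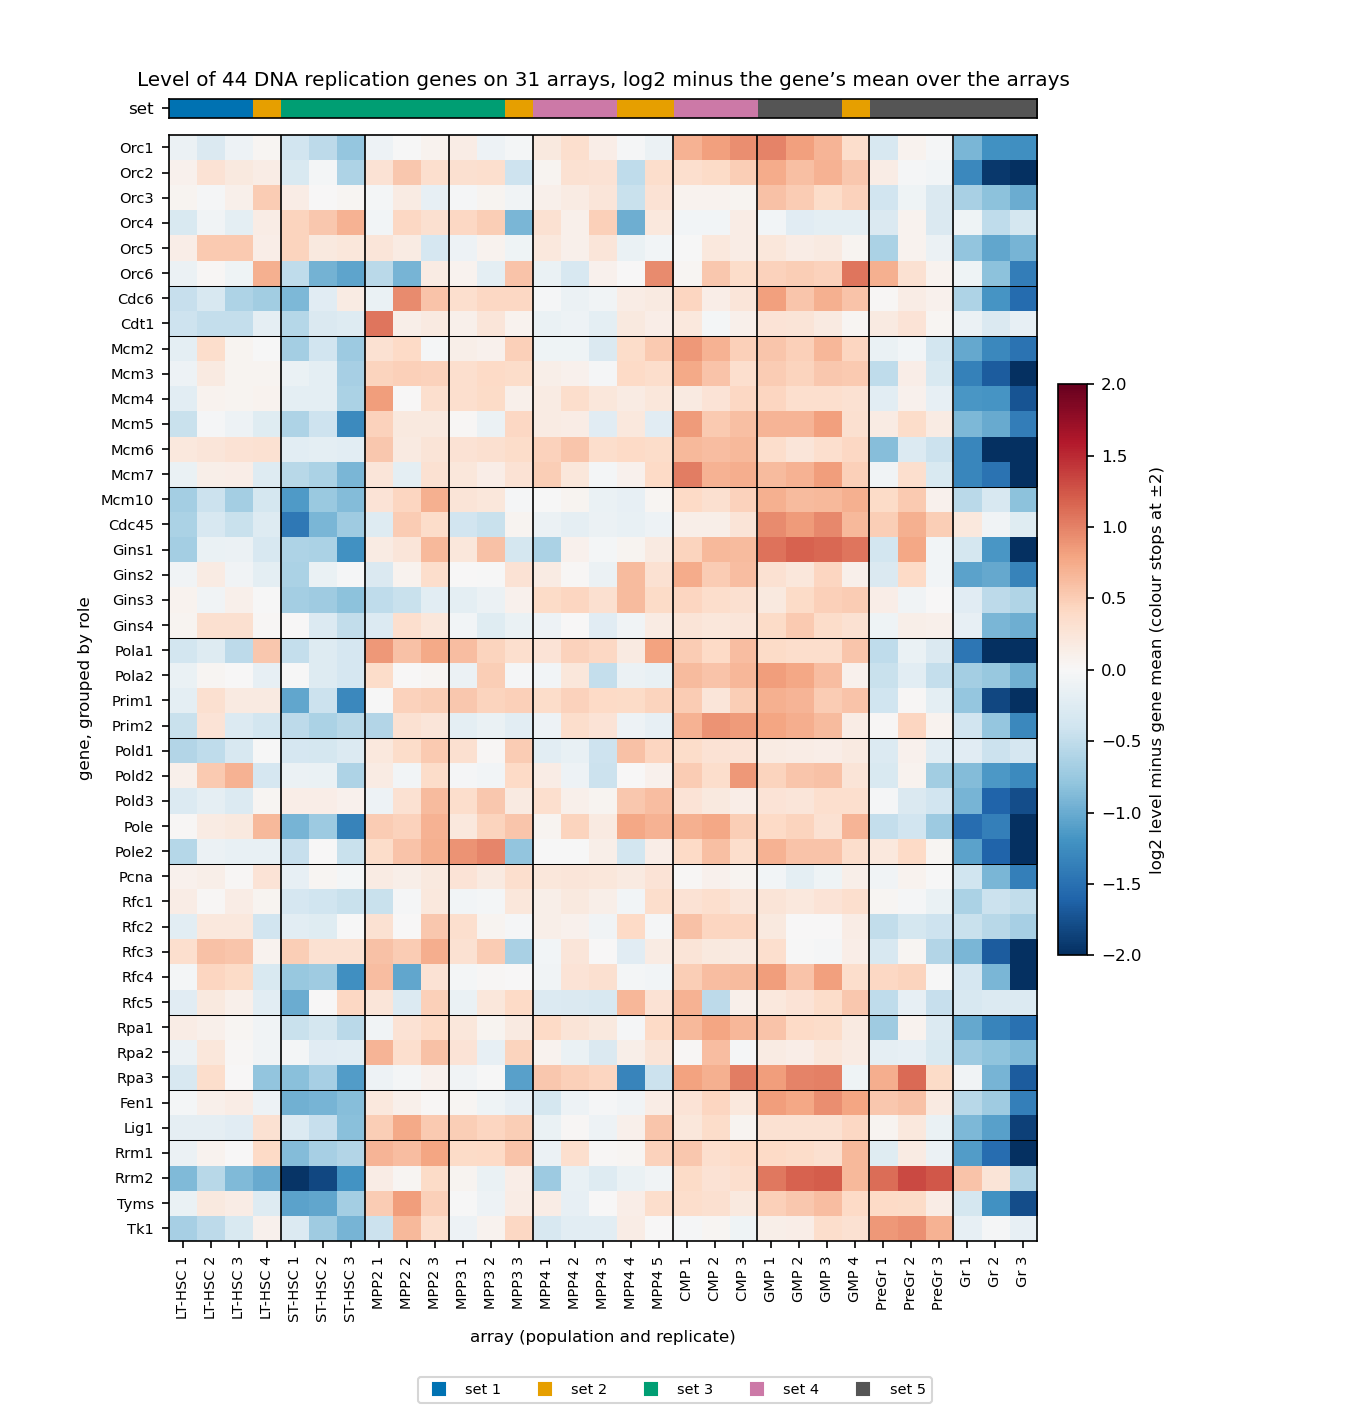
Level of each of the 44 genes (rows, grouped by role) on each of the 31 arrays (columns), as log2 level minus the gene's mean over all arrays, with the array set in the strip at the top. The 3 Gr arrays are the darkest blue block, and CMP and GMP arrays are mostly red.

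The first comparisons set the CD48+ multipotent progenitors against ST-HSC. In MPP2, 24 of the 44 genes rose over ST-HSC and none fell, where 2.80% of all 19938 genes were called higher and 3.78% lower. The median change of the 44 genes was 0.71 on the log2 scale, against 0.07 over all genes. Of the 44 genes 41 had a change above 0, beside 63.4% of all genes. Rises ran through licensing (Orc1, Orc2, Cdc6, Cdt1), the helicase, primer synthesis (Pola1, Prim1), the polymerase subunits Pold1 and Pole, Rpa1, Rpa2, Fen1 and Lig1, and all 4 nucleotide supply genes. None of the 6 genes of the clamp and its loader was called, and Orc3, Orc4 and Orc5 had changes below 0.

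Rrm2, the small subunit of ribonucleotide reductase made in S phase, read 7.31, 7.44 and 8.07 on the ST-HSC arrays and 9.41, 9.30 and 9.65 on the MPP2 arrays. All MPP2 arrays were above all ST-HSC arrays, by 1.85 ± 0.21 on average (3.61-fold, adjusted p = 2.29e-06). Pole, the catalytic subunit of the leading-strand polymerase, read 7.50, 7.70 and 7.09 in ST-HSC and 8.94, 8.90 and 9.12 in MPP2. These levels did not overlap either, and Pole was 2.94-fold higher (1.55 ± 0.19, adjusted p = 3.8e-06). Tyms, which makes thymidylate, rose 2.89-fold, and Rrm1, the large reductase subunit, 2.63-fold. Mcm10 rose 2.62-fold (1.39 ± 0.13, adjusted p = 1.65e-07) and the primase subunit Prim1 2.37-fold.

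The helicase ring rose nearly whole. Mcm5 read 9.05, 9.25 and 8.39 in ST-HSC and 10.13, 9.85 and 9.86 in MPP2, a rise of 1.05 ± 0.18 (2.06-fold, adjusted p = 0.000335). Mcm2 read 8.63, 8.93 and 8.58 against 9.61, 9.71 and 9.28 (1.76-fold), and Mcm7 read 8.59, 8.51 and 8.22 against 9.38, 8.95 and 9.44 (1.77-fold). Neither pair of groups overlapped. Mcm3, at 9.41, 9.35 and 8.87 in ST-HSC and 9.99, 10.02 and 10 in MPP2, was 1.73-fold higher. Mcm4, at 9.22, 9.21 and 8.78 against 10.24, 9.42 and 9.74, was 1.66-fold higher. Mcm6 read 10.44, 10.46 and 10.45 in ST-HSC and 11.19, 10.83 and 10.91 in MPP2: the groups were apart, but the change of 0.53 ± 0.21 was not called (adjusted p = 0.108).

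Of 40 further replication genes measured, such as checkpoint, cohesion and chromatin assembly factors, 25 rose in MPP2 and 1 fell. Esco2, the cohesin acetyltransferase of S phase, rose by 2.22 ± 0.24, Clspn, a fork checkpoint mediator, by 1.77 ± 0.17, and Gmnn, the inhibitor of Cdt1, by 1.73 ± 0.28. The gene that fell was Samhd1, which breaks down deoxynucleotides: it read 10.84, 10.76 and 10.92 in ST-HSC and 9.11, 9.4 and 9.74 in MPP2, a change of -1.43 ± 0.13 (adjusted p = 1.47e-07). All 19 measured mitosis genes rose, with a median change of 2.14. Markers of other cell types moved too. Of 7 erythroid markers 2 rose, with mean levels of 7.63 to 7.74 in ST-HSC and 8.21 to 8.45 in MPP2, and of 6 B and plasma cell markers 1 rose, with means of 6.56 to 6.66 against 7.01, 8.19 and 7.07. Their part in the rise of the replication genes was not tested.

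MPP3, the CD48+ CD150- progenitors, were higher than ST-HSC in 14 of the 44 genes and lower in none, beside 1.58% of all genes called higher and 0.767% lower. The median change was 0.61, against -0.01 over all genes, and again 41 genes had a change above 0, beside 47.6% of all genes. The called genes were Orc1, Mcm2, Mcm4, Mcm7, Mcm10, Gins3, Pola1, Prim1, Pole, Fen1, Lig1, Rrm1, Rrm2 and Tyms. This comparison rests on MPP3 arrays 1 and 2, and it shares the ST-HSC arrays with the comparison above. Leaving out MPP3 array 1 brought the count to 4, array 2 to 7 and ST-HSC array 3 to 9. How many of all genes were called in these fits is not given here.

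Rrm2 read 9.32, 9.13 and 9.39 in MPP3, all above the 3 ST-HSC values given above, and rose by 1.62 ± 0.24 (3.07-fold, adjusted p = 0.00013). Prim1 read 8.69, 9.30 and 8.45 in ST-HSC and 10.28, 10.18 and 10.21 in MPP3. These groups were well apart, with a 2.67-fold rise (1.42 ± 0.32, adjusted p = 0.0121), though the call was lost without any one of ST-HSC array 1, ST-HSC array 3, MPP3 array 1 or MPP3 array 2. Pole rose 2.51-fold, Mcm10 2.23-fold, Rrm1 2.13-fold and Lig1, the ligase of the lagging strand, 1.98-fold. Rrm1 lost its call without ST-HSC array 1 or either MPP3 array 1 or 2, at adjusted p of 0.0548 to 0.12, and Lig1 without MPP3 array 1, at 0.0651.

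In the helicase ring the MPP3 arrays read 9.43, 9.4 and 9.79 for Mcm2, 9.75, 9.79 and 9.51 for Mcm4 and 9.37, 9.27 and 9.43 for Mcm7, all above ST-HSC and all called. They read 9.88, 9.93 and 9.90 for Mcm3, 9.68, 9.54 and 10.07 for Mcm5 and 10.95, 10.98 and 11.03 for Mcm6. These were also above every ST-HSC array, with fold changes of 1.62, 1.64 and 1.43, but were not called.

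The 40 further replication genes gave 13 higher and 1 lower in MPP3. Esco2 rose by 1.65 ± 0.27, Clspn by 1.37 ± 0.19 and Uhrf1, which recruits the maintenance DNA methyltransferase, by 1.31 ± 0.23, while Samhd1 fell by 0.78 ± 0.15. With median-centred arrays the calls of Uhrf1 and Samhd1 were lost, and that of Uhrf1 also in the shared array set fitted alone. All 19 mitosis genes rose, with a median of 1.86. Of the 6 B and plasma cell markers 3 rose, with means of 8.35 to 8.43 in MPP3 against 6.56 to 6.66 in ST-HSC; Jchain, part of secreted antibody, read 11.23 ± 0.35 in MPP3 and 4.71 ± 0.30 in ST-HSC (SD, n = 3 each). The T and NK cell markers had means of 7.19 to 7.43 in MPP3 and 6.51 to 6.66 in ST-HSC. Whether such cells bear on the replication genes was not tested.

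**Figure D2:**
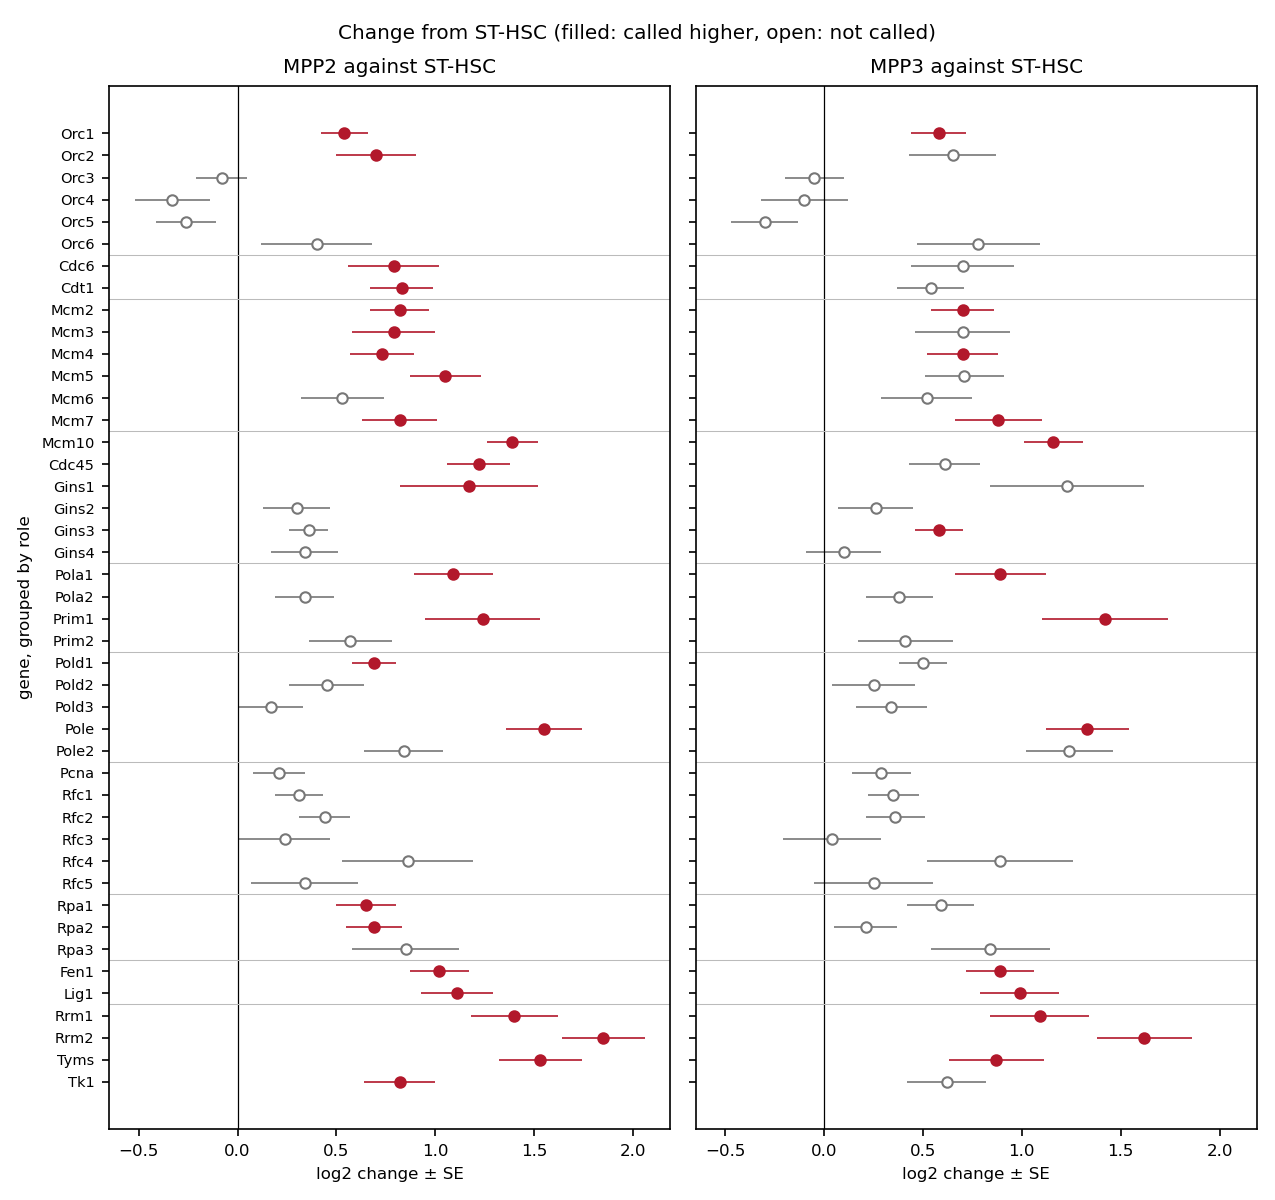
Change from ST-HSC of each of the 44 genes in MPP2 (left) and MPP3 (right), as log2 change ± SE, with filled points called higher. Rrm2 lies farthest to the right in both panels (1.85 and 1.62), and the 6 clamp and loader genes from Pcna to Rfc5 are all open.

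MPP2 and MPP3 were compared directly. None of the 44 genes was called, beside 0.662% of all genes, and limma gave 3 genes at an unadjusted p under 0.05 (6.82%), beside 13.6% of all genes. The median difference was 0.09, against 0.06 over all genes. Of the 44 genes 30 (68.2%) were higher in MPP2, beside 64.2% of all genes. The greater number of calls in MPP2 than in MPP3 against ST-HSC is therefore not a tested difference between the progenitors. No mitosis gene and none of the further replication genes was called between them. All 19 mitosis genes were higher in MPP2, though, with a median difference of 0.54. For these, limma gave 10 at an unadjusted p under 0.05 (52.6%), beside the 13.6% of all genes. Of the 40 further replication genes 30 were higher in MPP2, with a median of 0.1.

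The next comparison set CMP, the committed myeloid progenitors, against MPP4, the Flk2+ multipotent progenitors that shared their array set. In CMP 4 of the 44 genes rose and none fell, beside 2.57% of all genes called higher and 1.46% lower. The median change was 0.35, against 0.02 over all genes, and 39 genes had a change above 0, beside 55.4% of all genes. The 4 were Mcm2 and Mcm5 of the helicase, Orc1, the subunit of the origin recognition complex that comes and goes with the cycle, and Pola2, the regulatory subunit of polymerase alpha. This count moved with the fit. It was 8 with either model alone, beside 1441 of all 19938 genes with sets and 1016 (5.10%) without. It was 18 in the shared array set fitted alone, and 2 without MPP4 array 2, MPP4 array 3 or CMP array 1. The counts over all genes in these last fits are not given here.

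Mcm2 read 9.22, 9.22, 9.02, 9.68 and 9.84 in MPP4 and 10.17, 10 and 9.79 in CMP. The lowest CMP array lay below MPP4 array 5, but all CMP arrays were above MPP4 arrays 1 to 3 of their own set, and the change was 0.84 ± 0.15 (1.78-fold, adjusted p = 0.000887). The Mcm2 call was lost in 5 of the fits that left out an array, where the model without sets missed the threshold. Pola2 read 8.04, 8.32, 7.62, 7.99 and 7.95 in MPP4 and 8.73, 8.67 and 8.77 in CMP, with no overlap and a 1.66-fold rise (0.73 ± 0.15, adjusted p = 0.00454). Mcm5 read 9.83, 9.81, 9.44, 9.87 and 9.43 against 10.52, 10.19 and 10.27 (1.55-fold, adjusted p = 0.032), and this call was lost without any of 5 arrays and in the replicate block. Orc1 rose 1.51-fold.

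The remaining helicase subunits were not called. Mcm7 read 9.64, 9.37, 9.10, 9.22 and 9.54 in MPP4 and 10.16, 9.84 and 9.87 in CMP, and Mcm6 read 11.12, 11.22, 11.01, 11.05 and 11.02 against 11.30, 11.27 and 11.30, both without overlap. Mcm3, at 9.66, 9.62, 9.51, 9.93 and 9.89 against 10.30, 10.11 and 9.88, and Mcm4, at 9.57, 9.76, 9.64, 9.57 and 9.64 against 9.59, 9.69 and 9.82, overlapped. Among the 40 further replication genes only E2f1, a transcription factor of S-phase entry, was called, at 0.43 ± 0.09. No mitosis gene was called, with a median of 0.16. Of the 7 erythroid markers 2 rose, Car1 and Klf1, with list means of 7.29 to 7.82 in MPP4 arrays 1 to 3 and 8.15 to 8.20 in CMP, and their part was not tested.

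The granulocyte path was followed from GMP through PreGr to Gr. From GMP to PreGr, 17 of the 44 genes fell and 1 rose, beside 8.98% of all genes called lower and 6.63% higher. The median change was -0.45, against 0.01 over all genes, and 3 genes had a change above 0, beside 52.5% of all genes. The genes that fell were Orc1, Orc2 and Orc3, the helicase genes Mcm2, Mcm3, Mcm6 and Mcm7, Gins1 and Gins3, Pola1, Pola2 and Prim1, the polymerase subunits Pold2, Pold3 and Pole, and Rfc2 and Rpa1. No gene of nucleotide supply, Fen1 or Lig1 was called lower. The count of 18 called genes was 9 without PreGr array 3 and 11 without GMP array 1, and it was 31 in the shared array set fitted alone. The counts over all genes in these fits are not given here.

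Pola2 read 8.94, 8.88, 8.72 and 8.19 in GMP and 7.65, 7.89 and 7.63 in PreGr. Every PreGr array was below every GMP array, by 1.12 ± 0.15 on average (2.17-fold, adjusted p = 8e-06). Gins1, a subunit of the active helicase, read 10.09, 10.18, 10.15 and 10.08 in GMP and 8.64, 9.78 and 8.96 in PreGr. The groups did not overlap, with a 2.02-fold fall (adjusted p = 0.0432), but PreGr array 2 stood apart from the other two and the call was lost without any one of 5 arrays. Orc1 fell 1.90-fold, Pole 1.87-fold, the polymerase delta subunit Pold2 1.79-fold and Mcm6 1.77-fold; Pold2 lost its call without PreGr array 3.

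Tk1, the salvage thymidine kinase, went the other way. It read 9.31, 9.33, 9.55 and 9.50 in GMP and 10.06, 10.11 and 9.90 in PreGr, without overlap, and rose by 0.63 ± 0.18 (1.55-fold, adjusted p = 0.0145). The second, dimmer probe of Tk1 correlated with this one at 0.651 over the 31 arrays and changed by 0.34, and the mean of both probes was not called. The call was also lost without GMP array 1, GMP array 2, PreGr array 1 or PreGr array 2. Rrm2 read 10.32, 10.45, 10.48 and 9.92 in GMP and 10.38, 10.59 and 10.50 in PreGr, which overlapped.

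Within the helicase ring, PreGr arrays read 9.18, 9.26 and 8.95 for Mcm2 against 9.86, 9.79, 9.98 and 9.74 in GMP, and 9.80, 10.38 and 10.23 for Mcm6 against 11.01, 10.90, 10.99 and 11.07. Mcm3, at 9.03, 9.67 and 9.23 against 10.05, 9.99, 10.08 and 10.07, and Mcm7, at 9.07, 9.48 and 8.83 against 9.77, 9.83, 9.97 and 9.61, were likewise lower with no overlap. Mcm4 (9.20, 9.49 and 9.24 against 9.84, 9.75, 9.74 and 9.71) was apart but not called, and Mcm5 (9.83, 10.03 and 9.82 against 10.34, 10.34, 10.48 and 9.99) overlapped.

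At this step the 40 further replication genes split, with 4 higher and 6 lower. Samhd1 rose by 1.58 ± 0.13, E2f2, an E2F family transcription factor, by 0.93 ± 0.13, and Pold4, the small subunit of polymerase delta, by 0.86 ± 0.22. The Pold4 call was lost without PreGr array 1. Dtl, which directs Cdt1 to destruction, fell by 1.03 ± 0.17, Mcm8, a helicase of recombination repair, by 0.97 ± 0.20, and Chaf1b of the chromatin assembly factor by 0.88 ± 0.21. None of the 19 mitosis genes was called in both models and their median change was 0.18. Of these genes 15 had a change above 0, beside 52.5% of all genes. All 8 mature neutrophil markers rose, with list means of 7.16 to 8.23 in GMP and 12.10, 11.48 and 11.81 in PreGr, and PreGr array 2, with the lowest of these, had the highest level in 38 of the 44 replication genes, beside 34.5% of all genes. Of the B and plasma cell markers 4 of 6 rose, with means of 6.51 to 6.72 in GMP and 7.85 to 8.23 in PreGr, as did 3 of 6 T and NK cell markers and 3 of 8 macrophage markers. What these contribute was not tested.

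From PreGr to Gr the fall was broad: 38 of the 44 genes fell and none rose, beside 11.2% of all genes called lower and 8.12% higher. The median change was -1.14, against 0.02 over all genes. All 6 helicase subunits, Mcm10, Cdc45 and all GINS genes, all 3 RPA genes, Fen1 and Lig1, and all 4 nucleotide supply genes fell, with 5 of the 6 origin recognition genes. The 6 genes not called were Orc4, Cdt1, Pola2, Pold1, Rfc2 and Rfc5. The count stayed between 34 and 38 when each array was left out in turn.

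Orc2, a subunit of the origin recognition complex, read 8.85, 8.67 and 8.64 in PreGr and 7.41, 6.77 and 6.40 in Gr. The groups were far apart and Orc2 was 3.63-fold lower in Gr (-1.86 ± 0.20, adjusted p = 2.11e-07). Pole2, the second subunit of the leading-strand polymerase, read 8.61, 8.79 and 8.44 in PreGr and 7.33, 6.80 and 6.18 in Gr, a 3.59-fold fall without overlap. Pola1, the catalytic subunit of polymerase alpha, fell 3.46-fold, Rrm1 3.20-fold, Mcm3 3.14-fold and Mcm7 3.11-fold.

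The helicase ring fell as a whole. Gr arrays read 8.28, 8.02 and 7.83 for Mcm2, 8.19, 7.88 and 6.92 for Mcm3 and 8.24, 8.23 and 7.68 for Mcm4. They read 8.76, 8.65 and 8.28 for Mcm5, 9.35, 8.55 and 7.90 for Mcm6 and 7.84, 7.66 and 6.98 for Mcm7. Every Gr array was below every PreGr array for each of the 6 genes, with falls of 2.13-fold for Mcm2 to 3.14-fold for Mcm3. Gr array 3 was the lowest of the 3 for all of them; it was lowest for 37 of the 44 genes, beside 31% of all genes, and Gr array 1 was highest for 38, beside 35.4%.

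Against GMP, 40 of the 44 genes were lower in Gr and none higher, beside 19.2% and 15.2% of all genes, with a median of -1.65 against 0.03. Orc2, at 9.44, 9.30, 9.4 and 9.24 in GMP, was 5.73-fold lower in Gr (-2.52 ± 0.20, adjusted p = 3.15e-10). Gins1 read 8.65, 7.85 and 6.5 in Gr, a wide spread that stayed below all GMP arrays, and was 5.56-fold lower. Pola1 was 5.53-fold lower, Prim1 5.30-fold, Mcm3 5.19-fold and Mcm7 5.16-fold. Orc4, Cdt1, Rfc5 and Tk1 were not called.

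The further replication genes had 26 lower and 3 higher in Gr than in PreGr, and 28 lower and 4 higher than in GMP. Dscc1, part of a loader for sister chromatid cohesion, was lower than in PreGr by 1.92 ± 0.34, the fork protection factor Tipin by 1.74 ± 0.35 and the cyclin Ccne2 by 1.72 ± 0.28, whereas Samhd1 was higher by 0.92 ± 0.13, the salvage kinase Dck by 0.78 ± 0.19 and Rrm2b, the reductase subunit used outside S phase, by 0.75 ± 0.16. With median-centred arrays the call of Samhd1 in Gr over PreGr was lost. Samhd1 read 10.03, 9.93, 10.04 and 9.78 in GMP and 12.14, 12.64 and 12.71 in Gr, far apart. Against GMP the largest called falls of this list were Dscc1 (-2.3 ± 0.34), Tipin (-2.27 ± 0.35) and Atad5, which unloads PCNA (-2.25 ± 0.25), and the largest rises Samhd1 (2.50 ± 0.13), Dck (1.48 ± 0.19) and E2f2 (1.11 ± 0.13). Of the mitosis genes 14 of 19 fell from PreGr to Gr, with a median of -0.87. Mature neutrophil markers rose from PreGr to Gr in 5 of 8, with means of 12.95, 13.06 and 13.10 in Gr. Of 8 macrophage markers 4 fell, with means of 7.70 to 7.83 in PreGr and 7.38 to 7.54 in Gr, and of 6 T and NK cell markers 3 fell and 1 rose, with means of 7.64 to 8.08 and 7.13 to 7.48. Of 6 B and plasma cell markers 2 rose, with means of 7.85 to 8.23 and 7.89 to 8.84. Their part in the fall of the replication genes was not tested.

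**Figure D3:**
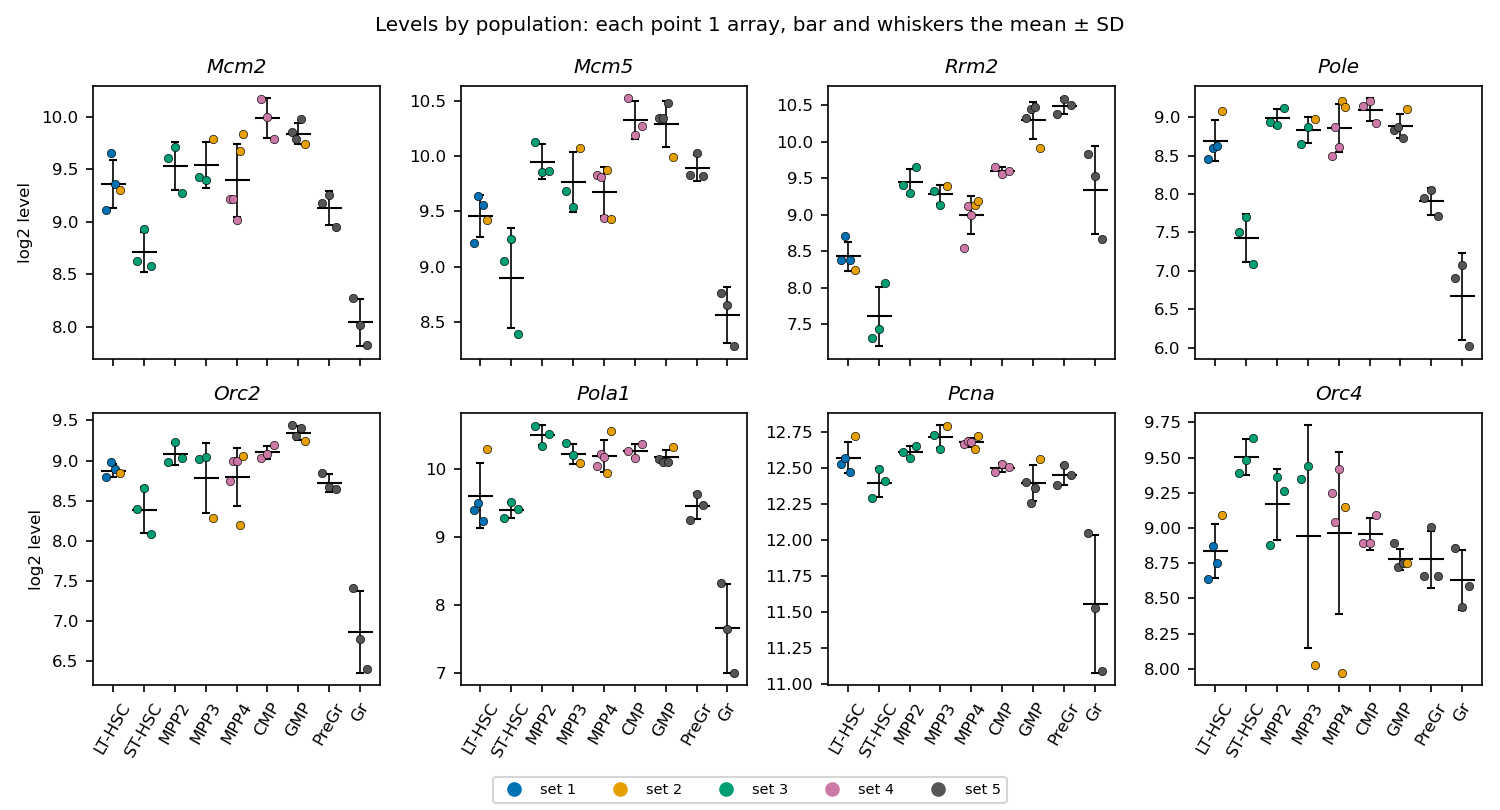
Log2 level of 8 of the genes in the 9 populations, each point 1 array coloured by its array set, with the mean ± SD. Mcm2, Mcm5, Rrm2, Pole, Orc2 and Pola1 are lower in Gr than in PreGr, Pcna moves within 11.09 to 12.79, and the Orc4 levels of Gr overlap those of GMP and PreGr.

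Both granulocyte steps use the PreGr arrays, so the difference between the steps was itself tested, a comparison chosen after the values had been seen. A larger fall at the second step was called for 5 genes and a smaller one for none, beside 2.88% and 1.85% of all genes, and 39 genes were not called. Tk1 changed by 0.63 and then -0.94 (difference -1.57 ± 0.31, adjusted p = 0.00204). The second, dimmer probe of Tk1 changed by 0.34 and then -0.32, and with the mean of both probes the difference was not called. Pcna changed by 0.11 and -0.89 (adjusted p = 0.00798), Rrm2 by 0.07 and -1.14 (0.0488), Orc2 by -0.66 and -1.86 (0.0326) and Fen1 by -0.41 and -1.32 (0.0318). Pcna read 12.40, 12.26, 12.36 and 12.56 in GMP, 12.38, 12.52 and 12.45 in PreGr and 12.05, 11.53 and 11.09 in Gr, so that GMP and PreGr overlapped and Gr lay below both. The count of 5 was unstable: it was 16 without Gr array 1, 1 without PreGr array 2, 2 without GMP array 1, GMP array 2, PreGr array 1, PreGr array 3 or Gr array 3, and 3 without GMP array 3 or GMP array 4. How many of all genes were called in these refits is not given here. Pcna has 2 probes that correlated at 0.999 and cannot be told apart, so its level may include a near-identical copy.

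**Figure D4:**
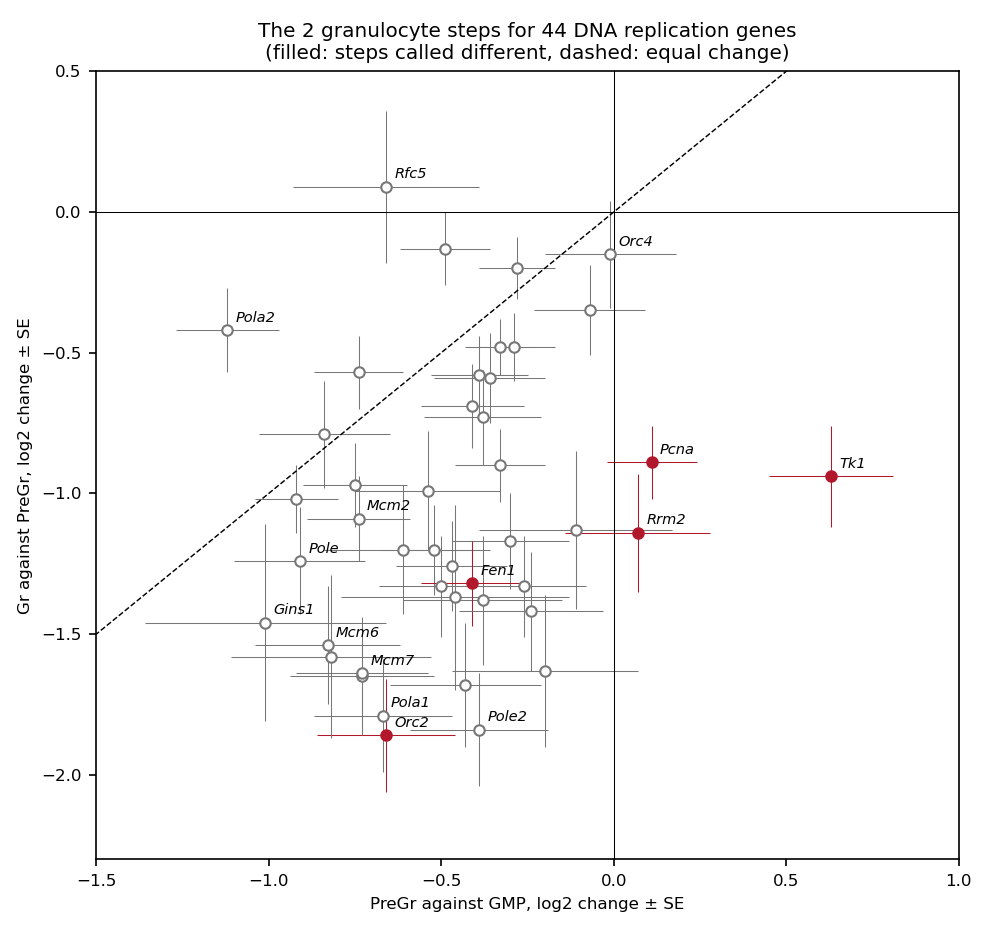
Log2 change ± SE of the 44 genes from GMP to PreGr (horizontal) and from PreGr to Gr (vertical), with filled points for genes whose steps were called different and a dashed line of equal change. Tk1, Rrm2 and Pcna lie right of 0 on the first step and well below 0 on the second.

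The comparisons with LT-HSC address the exit from the most primitive compartment, but they cross array sets: with the set in the model they rest on LT-HSC array 4, the only LT-HSC array that shares a set with other populations. ST-HSC and MPP2 were then linked to it through the differences between MPP3 array 3 and MPP3 arrays 1 and 2, and CMP through the MPP4 arrays. The single arrays were assumed to vary like the rest. Because the linked change can differ from that between the arrays as printed, the change without sets is given beside it. ST-HSC against LT-HSC gave no called gene of the 44, beside 0.537% of all genes. With sets in the model, limma gave 10 of the 44 at an unadjusted p under 0.05 (22.7%), beside 17.1% of all genes. After adjustment this model alone gave 1, Pole2, at -1.87 ± 0.41 (adjusted p = 0.0265). Its change without sets was -0.05, and the linking MPP3 arrays read 9.29 and 9.37 (arrays 1 and 2) and 7.61 (array 3). The model without sets gave 18, where 22.8% of all genes were called. The median change was -0.43, against 0.09 over all genes. Of the mitosis genes 7 of 19 fell in ST-HSC, with a median of -1.64, and LT-HSC array 4 had the highest mitosis mean of its population, at 9.19 against 8.64, 8.91 and 8.69. Its sort markers stood apart too. LT-HSC array 4 read 7.83 for Slamf1, against 9.05, 9.17 and 8.82 on LT-HSC arrays 1 to 3. For Cd48 it read 7.58, against 6.58, 6.66 and 6.37. How far this array alters the changes against LT-HSC was not tested.

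MPP2 were higher than LT-HSC in 2 of the 44 genes, beside 2.40% of all genes called higher and 2.05% lower, with a median of 0.21 against 0.16. Rpa2, of the single-strand binding complex, read 8.93, 9.27, 9.06 and 8.97 in LT-HSC and 9.72, 9.37 and 9.63 in MPP2, without overlap. It was called higher, by 1.00 ± 0.30 with sets in the model (adjusted p = 0.0403) and by 0.52 without. Pold1, the catalytic subunit of polymerase delta, read 7.91, 7.99, 8.18 and 8.49 against 8.71, 8.87 and 9.02, also without overlap, and was higher by 0.71 ± 0.22 with sets (adjusted p = 0.0465) and by 0.73 without. Without sets in the model 17 of the 44 were called, beside 36.1% of all genes. Both calls were lost when arrays were centred on their medians in place of quantile scaling, when the deposited values were fitted, and without MPP3 array 2. The count was 1 without LT-HSC array 2, MPP2 array 2 or MPP2 array 3. Among the further replication genes the histone chaperone Asf1b rose by 1.54 ± 0.43 and Samhd1 fell by 1.07 ± 0.28. The Asf1b call was lost with median-centred arrays, with the deposited values, and without MPP2 array 1 or MPP3 array 2. That of Samhd1 was lost without MPP3 array 1.

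Neither MPP3 nor MPP4 had a called gene of the 44 against LT-HSC, beside 4.02% and 1.99% of all genes. With sets in the model these comparisons set MPP3 array 3, and MPP4 arrays 4 and 5, against LT-HSC array 4 alone. limma then gave 8 and 9 at an unadjusted p under 0.05 (18.2% and 20.5%), beside 23.3% and 16.9% of all genes, and the model without sets gave 8 and 7 after adjustment, where 27.5% and 24.7% of all genes were called. The median change was 0.18 in each, against 0.10 and 0.05 over all genes, and in MPP3 it turned to -0.12 with median-centred arrays and -0.03 with the deposited values. For MPP4, the fit with the replicate number as a block called 1 gene.

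CMP were higher than LT-HSC in 5 of the 44 genes, beside 1.73% of all genes called higher and 1.72% lower, with a median of 0.55 against 0.08. Without sets in the model 18 were called, beside 21.5% of all genes. Rrm2 read 8.38, 8.71, 8.38 and 8.25 in LT-HSC and 9.65, 9.56 and 9.60 in CMP, without overlap. It rose by 1.63 ± 0.39 with sets in the model (adjusted p = 0.0147) and by 1.18 without. Mcm2 read 9.11, 9.66, 9.36 and 9.30 in LT-HSC, below all CMP values given above, and rose by 1.30 ± 0.26 with sets (adjusted p = 0.00473) and by 0.63 without. The GINS subunit Gins2 rose by 1.25 with sets and 0.67 without, Pold1 by 1.07 and 0.66 and the clamp loader subunit Rfc2 by 1.00 and 0.52. The calls of Gins2 and Rfc2 were lost without MPP4 array 4, which left 3. The Mcm2 call was lost without CMP array 1, and that of Rfc2 also with median-centred arrays. Recql4, a helicase-related factor of origin firing, rose by 0.69 ± 0.17 and Chtf18, of an alternative clamp loader, by 0.68 ± 0.20. The Recql4 call was lost without MPP4 array 4. That of Chtf18 was lost in 8 refits, with the deposited values and without single LT-HSC, MPP4 or CMP arrays.

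GMP were higher than LT-HSC in 3 of the 44 genes, beside 3.35% of all genes called higher and 3.31% lower, with a median of 0.34 against 0.10. Without sets in the model 22 were called, beside 35.2% of all genes. Rrm2, at 9.92 to 10.48 in GMP, was higher by 1.67 ± 0.37 with sets (adjusted p = 0.00581) and by 1.86 without. Mcm10 read 7.75, 8.01, 7.75 and 8.09 in LT-HSC and 9.14, 9.07, 9.09 and 9.15 in GMP, with no overlap, and rose by 1.05 ± 0.23 with sets (adjusted p = 0.00494) and by 1.21 without. The flap endonuclease gene Fen1 rose by 0.90 (adjusted p = 0.031) and by 0.81 without sets. Ticrr, an origin firing factor, rose by 1.41 ± 0.30, Recql4 by 0.58 ± 0.17 and Timeless, the fork protection partner of Tipin, by 0.56 ± 0.16. The calls of Fen1 and Timeless were lost with median-centred arrays and with the deposited values, and that of Recql4 with the deposited values. The share of the 44 genes called was low, and with the set in the model this comparison sets GMP array 4 against LT-HSC array 4.

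For the rest of the helicase ring, LT-HSC arrays read 9.43, 9.72, 9.60 and 9.60 for Mcm3, 9.20, 9.48, 9.46 and 9.48 for Mcm4 and 9.21, 9.64, 9.56 and 9.42 for Mcm5. They read 10.87, 10.90, 10.94 and 10.97 for Mcm6 and 9.01, 9.26, 9.27 and 8.88 for Mcm7. None of these 5 genes was called in ST-HSC, MPP2, MPP3, MPP4, CMP or GMP against LT-HSC, and PreGr and Gr were not compared with LT-HSC. GMP against CMP gave none of the 44, beside 1.04% of all genes, with 4 at an unadjusted p under 0.05 (9.09%), beside 12.2%. After adjustment the model with sets alone gave 1, Pold1, at -0.89 ± 0.19 (adjusted p = 0.016), a value that rests on GMP array 4 and the MPP4 arrays as link. Its change without sets was -0.15. The model without sets gave 4, beside 11.7% of all genes. The median was -0.03, against 0.02.

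Orc4 and Rfc5 were not called in any of the 14 comparisons. Orc4, a subunit of the origin recognition complex, ranged from 7.97 (MPP4 array 4) to 9.64 (ST-HSC array 3). Its lowest values, 7.97 and 8.03 (MPP3 array 3), came from 2 arrays of the same array set, and the other MPP3 arrays read 9.35 and 9.44. Its Gr arrays, at 8.86, 8.44 and 8.59, overlapped both PreGr (8.66, 9.01 and 8.66) and GMP (8.89, 8.72, 8.75 and 8.75). Rfc5, a clamp loader subunit, ranged from 8.66 (ST-HSC array 1) to 10.35 (CMP array 1), with 8.66, 9.66 and 10.07 in ST-HSC and 10.35, 9.14 and 9.76 in CMP, so that single populations spanned most of its range. Rpa3 has a second probe that correlated with the one used at 0.924 and fell from PreGr to Gr by 0.92, against 1.63 for the brighter probe.

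**Figure D5:**
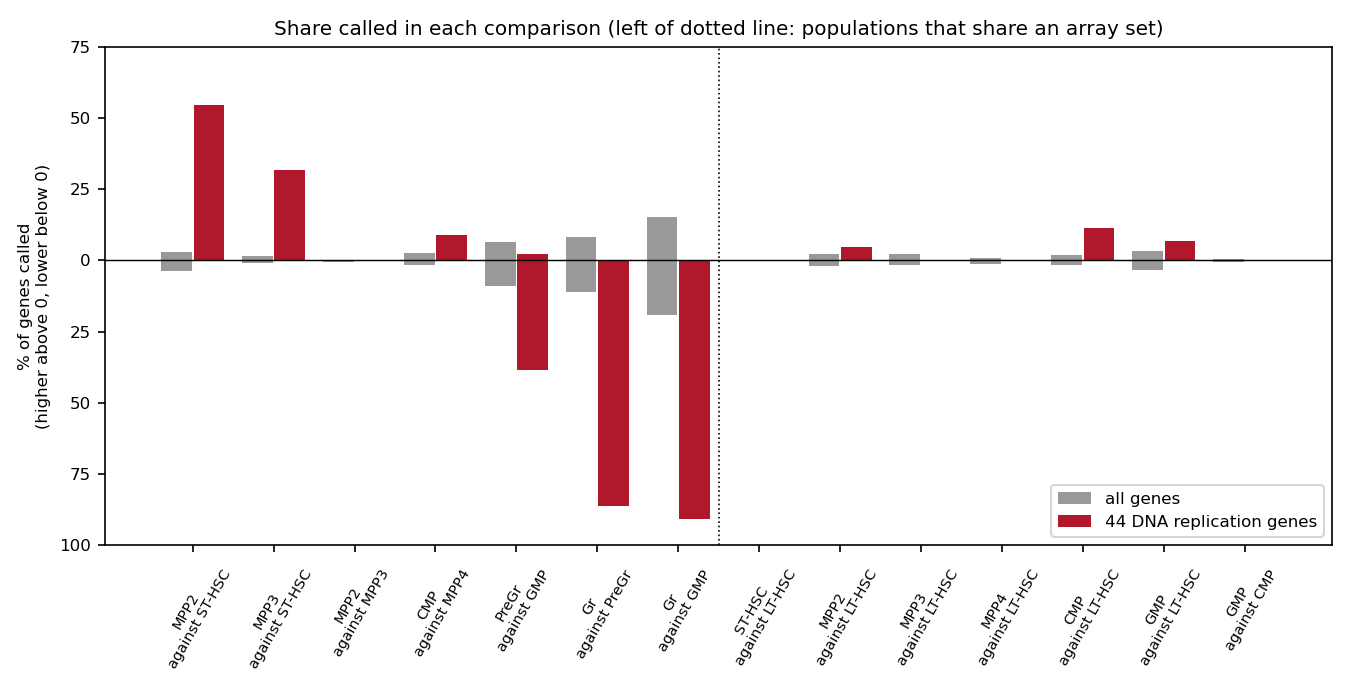
Percent of the 44 genes and of all genes called higher (above 0) or lower (below 0) in each of the 14 comparisons, with the 7 between populations of a shared array set left of the dotted line. The replication genes stand farthest from all genes in the comparisons of MPP2 and MPP3 with ST-HSC and in the 3 of the granulocyte path, and nearer to them in the comparisons with LT-HSC. In the comparisons with LT-HSC a smaller share of simulated 2.00-fold changes was recovered than in those within a set. The bearing of this on the shares called was not tested.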

How the data were processed

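The deposited values are log2 intensities of 31 Affymetrix gene arrays (35557 probes, 1.39 to 14.29), made with RMA per the submitters' processing notes; version and settings are not given in the sources used here. The number of arrays limits the precision. Of the probes, 21789 have 1 gene symbol, 1621 several and 12147 none. Of the first, 21698 matched RefSeq genes and 91 kept the symbol of the annotation. For the 999 genes with several probes the brightest was used, which gave 19938 genes. Arrays were quantile normalized, because the deposited medians differed between 5 array sets (6.19 to 7.83). Sets join arrays that share at least 2 identical values of the same probe. In limma 3.58.1 (R 4.3.3), population means were fitted on all 31 arrays with a term for the array set (18 residual degrees of freedom) and without it (22), with eBayes and Benjamini-Hochberg adjustment over 19938 genes. A call needed adjusted p under 0.05 in both, in the same direction. The steps were tested on simulated arrays with known changes, where each gene had independent noise of the same spread on every array. Of 100 genes changed 2.00-fold, 77% to 95% were called in the comparisons within a set. In the comparisons with LT-HSC, and in that of GMP with CMP, 38% to 66% were called. Of 100 genes changed 4-fold, 88% to 99% were called in these cross-set comparisons. Tables and figures were made with Python 3.11.15, pandas 2.3.3, NumPy 2.4.6 and matplotlib 3.10.9.

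Named genes were, in each comparison, up to 6 called replication genes in each direction by size of change and up to 3 of 40 further replication genes, with array values for the 2 largest, for genes against the trend and for Mcm2 to Mcm7. Pcna, Fen1 and Rrm2 at the granulocyte steps, and single marker genes, were named outside this rule after their values were seen. The genes and lists were chosen with earlier results of these data known. Alternatives were median-centred arrays, the deposited values, other probe rules, a filter on dim genes (14953 kept), the fit of 1 array set, the replicate number as a block and leaving out each array.

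Replicate numbers were checked by correlating deviations of same-numbered arrays: every pair was above 0.1 for MPP4 with LT-HSC (0.126 to 0.271) and GMP with LT-HSC (0.217 to 0.415), in the fit without sets alone. LT-HSC array 4, MPP4 array 4 and GMP array 4 share a set. Arrays 1 to 3 of LT-HSC, MPP4 and GMP lie in different sets.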

Additional observations from a re-analysis of the deposited data

Results flagged for a closer look

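In populations of 4 or 5 arrays, 12 of 132 combinations of gene and population had 1 array far from the others by Dixon's criterion. Chance meets it in about 1 of 20 for independent genes and arrays of 1 kind. Here the genes share arrays, and the arrays of each of these populations come from different array sets. No excess over chance can therefore be read from the 12. In LT-HSC, array 4 read 10.12 for Orc6 (others 9.29 to 9.43) and 9.72 for Lig1 (9.18 to 9.23), and array 1 read 9.20 for Mcm4 (9.46 to 9.48) and 7.83 for Pole2 (8.24 to 8.28). In MPP4, array 4 read 9.25 for Orc3 (9.80 to 9.98), 7.97 for Orc4 (9.04 to 9.42) and 8.03 for Pole2 (8.39 to 8.52), and array 1 read 8.38 for Gins1 (8.97 to 9.19). In GMP, array 4 read 10.48 for Orc6 (9.87 to 9.91), 9.73 for Rpa3 (10.65 to 10.82) and 9.82 for Lig1 (9.71 to 9.72), and array 1 read 8.89 for Orc4 (8.72 to 8.75). LT-HSC array 4, MPP4 array 4 and GMP array 4, with 2, 3 and 3 of these, belong to the same array set.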

How the results depend on the processing

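Of 222 recomputed counts over 15 comparisons, 50 moved by over 1.5 times. MPP2 against ST-HSC (16 to 28), Gr against PreGr (34 to 41), Gr against GMP (39 to 43) and MPP2 against MPP3 (0) did not. Without sets in the model the counts were 8 for CMP against MPP4, 18 for ST-HSC, 17 for MPP2, 8 for MPP3, 7 for MPP4, 18 for CMP and 22 for GMP against LT-HSC, and 4 for GMP against CMP. With sets alone they were 8 for CMP against MPP4, 1 for ST-HSC against LT-HSC, 1 for GMP against CMP and 8 for the difference between granulocyte steps. Median-centred arrays gave 8 for MPP3 against ST-HSC, 22 for CMP against MPP4, and 1 each for MPP2 and MPP3 against LT-HSC. The deposited values gave 17 for CMP against MPP4, 30 for PreGr against GMP, 1 for MPP3 against LT-HSC, 1 for GMP against CMP and 12 for the steps. The shared set alone gave 18 for CMP against MPP4 and 31 for PreGr against GMP. The replicate block gave 1 for MPP4 against LT-HSC and 1 for GMP against CMP, and moved no other count by over 1.5 times. Leaving out 1 array gave 4 to 12 for MPP3 against ST-HSC, 2 to 5 for CMP against MPP4, 9 to 17 for PreGr against GMP, 0 to 1 for ST-HSC, 0 to 3 for MPP2, 0 to 1 for MPP4 and 3 to 6 for CMP against LT-HSC, 0 to 1 for GMP against CMP (1 without MPP4 array 5) and 1 to 16 for the steps. Where not given above, the counts over all genes in these refits are left out here. Whether the moves were particular to the replication genes, and their cause, was not tested. Median-centring turned the median of MPP2 against LT-HSC to -0.06. Of 84 named results for single genes, 29 lost their call in 96 of 1248 refits and none reversed. Comparisons with LT-HSC could not be fitted without LT-HSC array 4, nor those of ST-HSC, MPP2 and MPP3 with LT-HSC without MPP3 array 3 or with the replicate block, nor those of GMP with LT-HSC or CMP without GMP array 4.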

Other observations

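Samhd1, the deoxynucleotide hydrolase, ran across the populations in another order than the replication genes. Its mean was lowest in MPP2 at 9.42 ± 0.31 (SD, n = 3), followed by GMP at 9.94 ± 0.12 (SD, n = 4), MPP3 at 10.03 ± 0.05 and CMP at 10.08 ± 0.12 (SD, n = 3 each) and MPP4 at 10.22 ± 0.15 (SD, n = 5). From GMP to MPP4, neighbours in this order overlapped. LT-HSC at 10.80 ± 0.28 (SD, n = 4) and ST-HSC at 10.84 ± 0.08 (SD, n = 3) overlapped each other and lay above them, and PreGr at 11.58 ± 0.17 and Gr at 12.50 ± 0.31 (SD, n = 3 each) were the highest of the 9 populations. Dck, the salvage kinase for deoxycytidine, also stood highest in Gr, at 10.02, 9.74 and 9.90, above PreGr at 9.11, 9.0 and 9.22, while the arrays of the other 7 populations lay between 7.97 and 8.96. E2f2 read 8.65, 8.17 and 8.56 in PreGr and 8.42, 8.82 and 8.69 in Gr, which overlapped, and 7.37 to 7.61 in GMP.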
